A study of Homo sapiens with 15 samples.

Results

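The genes described here encode constitutive subunits of the proteasome and a few of its assembly chaperones, read in SNB19 cells, an established human glioblastoma line. Every symbol of the count table made of PSMA, PSMB, PSMC or PSMD and a number was taken, apart from PSMB8, PSMB9 and PSMB10, and a summed count of 30 or more over the libraries was required. The table held 18485 gene symbols, of which 34 matched, and all 34 reached that sum. They comprised 14 genes of the core particle (7 PSMA and 7 PSMB) and 20 counted to the regulatory particle (6 PSMC and 14 PSMD). The 14 PSMD genes include the chaperones PSMD5, PSMD9 and PSMD10, which were kept in the regulatory sums and, where tested, in the regulatory counts and medians. The lowest summed counts were 64 for PSMD5 and 84 for PSMD3, and the next was 760 for PSMD1.

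All cells had received a lentiviral vector. The control vector carried no insert (EV), and the other vectors carried ZBTB18, a zinc-finger transcriptional repressor, in 4 versions: the full-length protein (FL), the short form named SF-Nte, and a mutant of each (FL-mut, SF-mut). Each of the 5 groups had 3 libraries of poly(A) RNA, made as PCR-amplified cDNA for long-read nanopore sequencing. The labels give neither the mutated residues, nor the time after transduction, nor whether transduced cells were selected, nor whether the replicates were separate cultures. If they were not, the p-values measure a spread that may be technical.

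The proteasome is the main protease for proteins tagged with ubiquitin. Its barrel-shaped core is a stack of rings: the outer rings of PSMA subunits gate the entrance, and the inner rings of PSMB subunits hold the cutting sites. The regulatory particle caps the barrel. Its PSMC subunits are a ring of ATPases that unfold substrates, and its PSMD subunits bind ubiquitin chains, remove them, or hold the cap together, although PSMD5, PSMD9 and PSMD10 are assembly chaperones that leave before the particle is complete. Drugs that block the core are used against myeloma.

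Library totals ran from 315693 to 1930245 counts. They were 432611 to 603155 with SF-Nte and 315693 to 597414 with SF-mut, and no EV, FL or FL-mut library was below 803316. In contrasts of a short-form group with EV or FL, depth and group therefore cannot be told apart. ZBTB18 itself was between 4.37 and 7.12 CPM (counts per 1000000, after scaling between libraries) in the EV libraries and between 199 and 6858 CPM in the other 12. Of the glial and glioblastoma markers fixed as a list, VIM (143 to 844 CPM), CD44 and NES were read in every library, while GFAP and S100B had a median of 0, so the astrocyte-defining transcripts were at or near 0. SOX2 lay between 1.13 and 27.7 CPM, and OLIG2 was not in the count table, which held 6 of the 7 glial markers. Summed immune markers reached at most 11.6 CPM, epithelial markers 9.63 CPM and endothelial markers 21.4 CPM. These sums rest on the markers that the count table held: 2 of 5 immune, 2 of 5 epithelial and 3 of 4 endothelial. In bulk RNA, fewer cells of a kind and less RNA per cell cannot be told apart. The SF-mut libraries carry barcode names that repeat those of EV with a suffix, and whatever the suffix marks, which the labels do not say, cannot be told apart from the SF-mut group.

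The libraries differed in base composition, and this moved with several subunit transcripts. For the 662 tested genes with the most GC-rich transcripts (59.2% GC or more), the mean deviation of log2(CPM + 1) from each gene's average was 0.75 in EV replicate 1, 1.13 in FL-mut replicate 2, 0.42 in FL-mut replicate 3 and 0.78 in SF-mut replicate 2. No other library was above 0.12. A deviation over 0.3 was used to mark these 4 as GC-rich libraries, a limit set after the values were seen. No subunit gene was itself among the 662, since the highest transcript GC of a member was 57.2% (PSMD8). Member differences with an unadjusted p under 0.05 are given with and without these libraries, and the part of base composition in them was not tested.

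The promoters of 5 members are shown because the results below turn on their transcripts: PSMD8, PSMD6 and PSMC3 were high in some or all of the GC-rich libraries, and PSMA3 and PSMC2, of the core and the ATPase ring, were lowest in 1 of them. Each is the 120 bases before the RefSeq start site on the gene's strand (GRCh38.p14), 5′ to 3′, at chr19:38374451-38374570 (plus strand) for PSMD8, chr3:64023495-64023614 (minus) for PSMD6, chr11:47426440-47426559 (minus) for PSMC3, chr14:58244723-58244842 (plus) for PSMA3 and chr7:103347523-103347642 (plus) for PSMC2. Capitals mark CGGAAG, the core of ETS-type sites, and CCAAT, the CCAAT box, each on either strand (CTTCCG and ATTGG on the other).
PSMD8: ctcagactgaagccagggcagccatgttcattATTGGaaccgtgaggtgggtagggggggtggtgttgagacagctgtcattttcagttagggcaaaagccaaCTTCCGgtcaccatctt
PSMD6: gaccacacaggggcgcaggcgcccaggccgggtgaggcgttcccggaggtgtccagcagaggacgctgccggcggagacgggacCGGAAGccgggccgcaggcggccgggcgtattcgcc
PSMC3: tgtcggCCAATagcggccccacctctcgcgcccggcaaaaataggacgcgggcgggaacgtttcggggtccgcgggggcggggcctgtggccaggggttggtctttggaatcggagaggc
PSMA3: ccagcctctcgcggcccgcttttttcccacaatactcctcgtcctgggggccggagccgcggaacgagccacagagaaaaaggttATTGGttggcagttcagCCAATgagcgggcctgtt
PSMC2: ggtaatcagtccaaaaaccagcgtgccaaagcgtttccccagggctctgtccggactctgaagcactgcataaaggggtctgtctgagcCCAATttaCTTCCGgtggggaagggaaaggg

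PSMD8 and PSMC2 held both motifs in this stretch, PSMD6 held CGGAAG alone, and PSMC3 and PSMA3 held CCAAT alone. GENCODE starts all 5 genes further upstream than RefSeq, so each stretch lies partly or wholly within the gene's annotated span. The GC content of the stretch ran from 52.5% (PSMD8) to 76.7% (PSMD6). RefSeq promoters of 300 bases (250 before and 50 after the start) were at hand for 29 of the 34 members, not for PSMA7, PSMB1, PSMB6, PSMB7 and PSMD4. CGGAAG or its complement was in 19 of the 29 (65.5%), against 44.3% of 5283 tested genes, 22.6% of all 27305 genes with a promoter and 19.5% of all 35116 promoter entries, of which a gene can have several. CCAAT was in 16 (55.2%), against 46.2%, 39.7% and 34.6%. TGACNNNGC, a match to the antioxidant response element that NRF-family factors bind, was in 9 (31%), against 20.7%, 16.1% and 13.3%. ACATCTG, a match to the E-box-like sequence bound by ZBTB18, was in 1 promoter, that of PSMB3 (3.45%), against 2.73%, 4.1% and 3.4%. Both strands were searched for each motif, and a match is a description of letters, not a site.

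The members lay on 15 chromosomes. In GENCODE (GRCh38), 14 of the 34 overlapped a gene on the opposite strand and 9 overlapped one on the same strand. PSMD6 (chromosome 3, 64010549 to 64024010, minus strand) overlapped the antisense genes PSMD6-AS1 and PSMD6-AS2, and since the use of strand in counting is not given in the sources used here, their reads cannot be told apart from its own. PSMD8 (chromosome 19, 38374536 to 38383824, plus strand) and PSMC3 (chromosome 11, 47418769 to 47426473, minus strand) overlapped no annotated gene. The pseudogene PSMC1P1 was counted at 38.2% to 44.3% of the PSMC1 level in every library, so PSMC1 is uncertain by the reads the copies share.

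Per kilobase of transcript, the core classes had higher median levels than the regulatory classes, with overlapping ranges. With each member's median over the 15 libraries, PSMB3, a core beta subunit, was highest at 2409 CPM per kilobase. PSMA2 (2247) and PSMA6 (1461), both core alpha subunits, came next, and the highest regulatory gene was the ATPase PSMC5 at 1087. The class medians of these levels were 881 for PSMA, 494 for PSMB, 262 for PSMC and 45.1 CPM per kilobase for PSMD. The PSMD genes were also the most uneven, from 381 for PSMD13, a lid subunit, to 4.61 for the chaperone PSMD5 and 3.80 for the lid subunit PSMD3. In the EV libraries the same scale gave PSMB3 2358 ± 192, PSMA2 2065 ± 400.4, PSMA6 1435 ± 28.8 and PSMC5 1182 ± 85.8 CPM per kilobase (SD, n = 3). The gap between PSMB3 and PSMA2 was smaller than the SD of PSMA2 but larger than that of PSMB3, and PSMA6 lay below PSMA2 by more than the SD of either. Without division by length PSMA2 was highest, with a median of 2438 CPM, and PSMB3 had 1545 CPM. The median transcript length was 889.5 bases for core and 1344 for regulatory members, so the division bears on the comparison of the classes. Whether these long-read counts scale with transcript length was not tested.

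No subunit passed the test of any difference among the 5 groups. The filter on low counts kept 6767 genes, 32 of them members: PSMD3 and PSMD5 were left out at medians of 4.98 and 4.85 CPM. Of the 32, edgeR's quasi-likelihood test with Benjamini-Hochberg adjustment over the 6767 genes called 0 at 0.05, where 76 genes (1.12%) were called in all. DESeq2 also called 0 members, where 9.65% of the genes it gave a p for were called, but it gave no p for PSMD8. Without the filter on low counts, edgeR called 4 of 34, PSMA7, PSMC3, PSMD6 and PSMD8, where 1059 of 18485 genes (5.73%) were called in all. At an unadjusted p under 0.05 the count was 4 of 32 (12.5%, against 16.3% of all tested genes), namely PSMD8, PSMC3, PSMD12 and PSMD6. With SF-mut replicate 2 left out, PSMD8 passed, with an edgeR adjusted p of 0.0394. The share of all tested genes called in that fit is not given here. FL-mut replicate 2, kept in it, had 1606 CPM of PSMD8, and no other kept library had more than 147 CPM.

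Nor did any member pass in a contrast of 2 groups. Members called by edgeR after adjustment were 0 of 32 in each of the 7 contrasts. The share of all tested genes called was 0.31% for FL against EV, 0.192% for FL-mut against EV, 0.0443% for SF-Nte against EV and 0.0591% for SF-mut against EV. It was 0.0887% for FL-mut against FL, 0% for SF-mut against SF-Nte and 1.06% for SF-Nte against FL. At an unadjusted edgeR p under 0.05, FL against EV had 0 members (7.64% of all tested genes), and FL-mut, SF-Nte and SF-mut against EV had 1 each (10.5%, 7.23% and 5.36%). FL-mut against FL had 4 (12.1%), SF-mut against SF-Nte 3 (8.33%) and SF-Nte against FL 0 (13.2%). DESeq2 called 0 of 31 members after adjustment, where 1.89%, 2.15%, 0.355%, 0.37%, 1.66%, 0.0592% and 4.38% of all genes were called in the same order of contrasts. At an unadjusted DESeq2 p under 0.05 it had 1, 1, 2, 1, 5, 4 and 0 members, against 9.56%, 13%, 9.01%, 7.01%, 15.3%, 10.9% and 16.2% of all genes. The largest of these counts, 5 of 31 for FL-mut against FL, is 16.1%.

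Without the filter, edgeR called PSMD8 in FL-mut against EV (1.18% of all genes called in that fit) and in SF-mut against EV (0.438%), and PSMD6 in SF-Nte against EV (0.655%). It called PSMC3, PSMD6 and PSMD8 in FL-mut against FL (1.88%) and PSMD6 and PSMD8 in SF-mut against SF-Nte (1.04%). It called no member in FL against EV (1.09%) or SF-Nte against FL (1.63%). The first 4 contrasts share the EV libraries, and others share FL, FL-mut, SF-Nte or SF-mut.

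**Figure D1:**
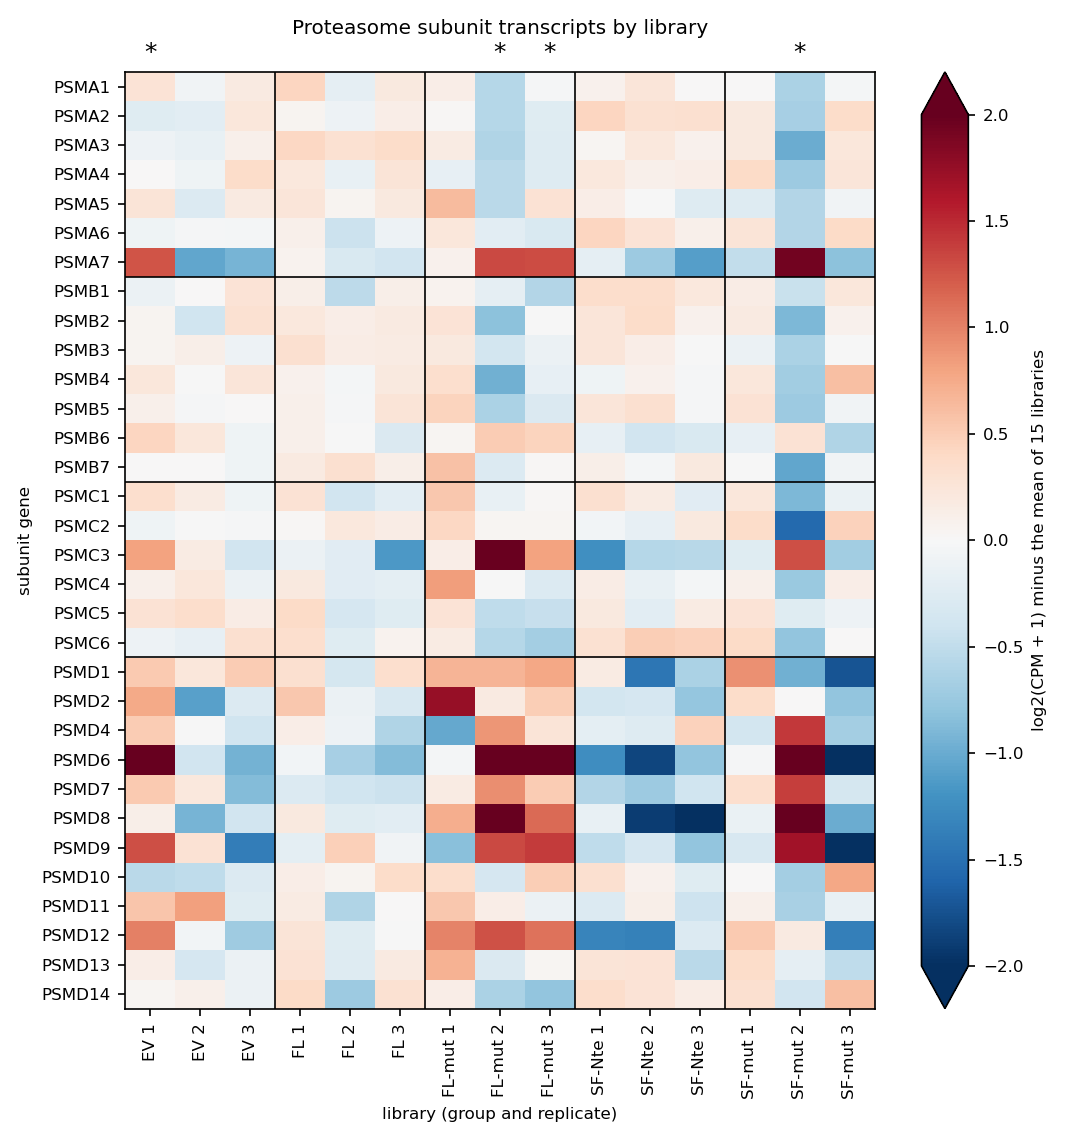
Each row is 1 of the 32 tested subunit genes and each column 1 library; colour is log2(CPM + 1) minus the gene's mean over 15 libraries, cut at 2 either way. Lines part the groups and the PSMA, PSMB, PSMC and PSMD classes, and asterisks mark the 4 GC-rich libraries, where PSMA7, PSMC3, PSMD6 and PSMD9 are red and most core genes are pale or blue.

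From the lowest to the highest of the 15 libraries, 20 of the 32 tested members spanned less than 3-fold in CPM, 12 of them core and 8 regulatory. The median span was 2.17-fold for PSMA, 2.25-fold for PSMB and 2.85-fold for PSMC. Among PSMD genes it was 5.51-fold over the 11 that were above 0 in every library. The lowest values of PSMD1, PSMD6, PSMD9 and PSMD12, all in SF-mut replicate 3, rest on 6, 5, 8 and 10 counts. The smallest count of a core gene was 42 (PSMA7 in SF-Nte replicate 3), so counting error weighs more on the PSMD spans. Spans were taken for members only, with no share of all tested genes beside them.

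The outer-ring subunits PSMA1 to PSMA6 all had SF-mut replicate 2 as their lowest library. PSMA2 was at 1969, 2011 and 2741 CPM with EV, 2438, 2187 and 2565 with FL and 2376, 1573 and 1969 with FL-mut. It was at 3143, 2874 and 2916 CPM with SF-Nte and 2678, 1470.2 and 3026 with SF-mut. All SF-Nte libraries were above all EV and all FL libraries, and the lowest value was that of SF-mut replicate 2. The SF-Nte minus EV difference was 0.41 ± 0.25 (log2, SE) with an edgeR adjusted p of 0.772, and the 95% interval of the difference ran from -0.13 to 0.95.

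PSMA3 was higher in every FL library than in every EV library. Its values were 658, 639 and 759 CPM with EV, 938, 868 and 911 with FL and 791, 466 and 593 with FL-mut. With the short form they were 722, 813 and 749.5 CPM, and with SF-mut 810.5, 354 and 822. The difference of FL from EV was 0.40 ± 0.29 (edgeR adjusted p = 0.848), and that of FL-mut from FL was -0.55 ± 0.29 (adjusted p = 0.45), again with no overlap of libraries. The lowest values were in the GC-rich libraries SF-mut replicate 2 and FL-mut replicate 2.

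PSMA7 departed from the other outer-ring genes. It stood at 538, 109 and 118 CPM with EV, at 236, 182 and 171 with FL and at 239, 562 and 556 with FL-mut. In the short-form libraries it stood at 198, 135 and 105 CPM, and with SF-mut at 160.1, 854 and 127. Its 4 highest libraries were the 4 GC-rich ones, and the remaining 11 lay between 105 and 239 CPM. FL-mut minus FL was 1.20 ± 0.69 (log2, SE; edgeR adjusted p = 0.5).

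The subunits that carry the cutting sites did not pass in any contrast. PSMB5, with chymotrypsin-like activity, had group means of 453 ± 22.4 CPM with EV, 481 ± 47.1 with FL, 418 ± 166 with FL-mut, 506 ± 62.2 with SF-Nte and 412 ± 138 with SF-mut (SD, n = 3). PSMB7, with trypsin-like activity, had means of 319 ± 11.5, 374 ± 27.7, 360.4 ± 112, 345 ± 28.7 and 263 ± 92.3 CPM in that order. Every FL library was above every EV library for PSMB7, by 0.23 ± 0.29 (edgeR adjusted p = 0.947). For both genes the lowest of the 15 libraries was SF-mut replicate 2.

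PSMB6, with caspase-like activity, followed the other pattern. It was at 647, 562 and 451 CPM with EV, 517, 476 and 394 with FL and 496, 681 and 653 with FL-mut. It was at 428, 371 and 388 CPM with SF-Nte and 429.8, 589 and 316 with SF-mut. Its 4 highest libraries were the GC-rich ones, and all SF-Nte libraries were below all EV libraries, with a difference of -0.49 ± 0.26 (log2, SE; edgeR adjusted p = 0.722). PSMB3, a structural beta subunit, had SF-mut replicate 2 as its lowest library at 956 CPM and FL replicate 1 as its highest at 1849 CPM.

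**Figure D2:**
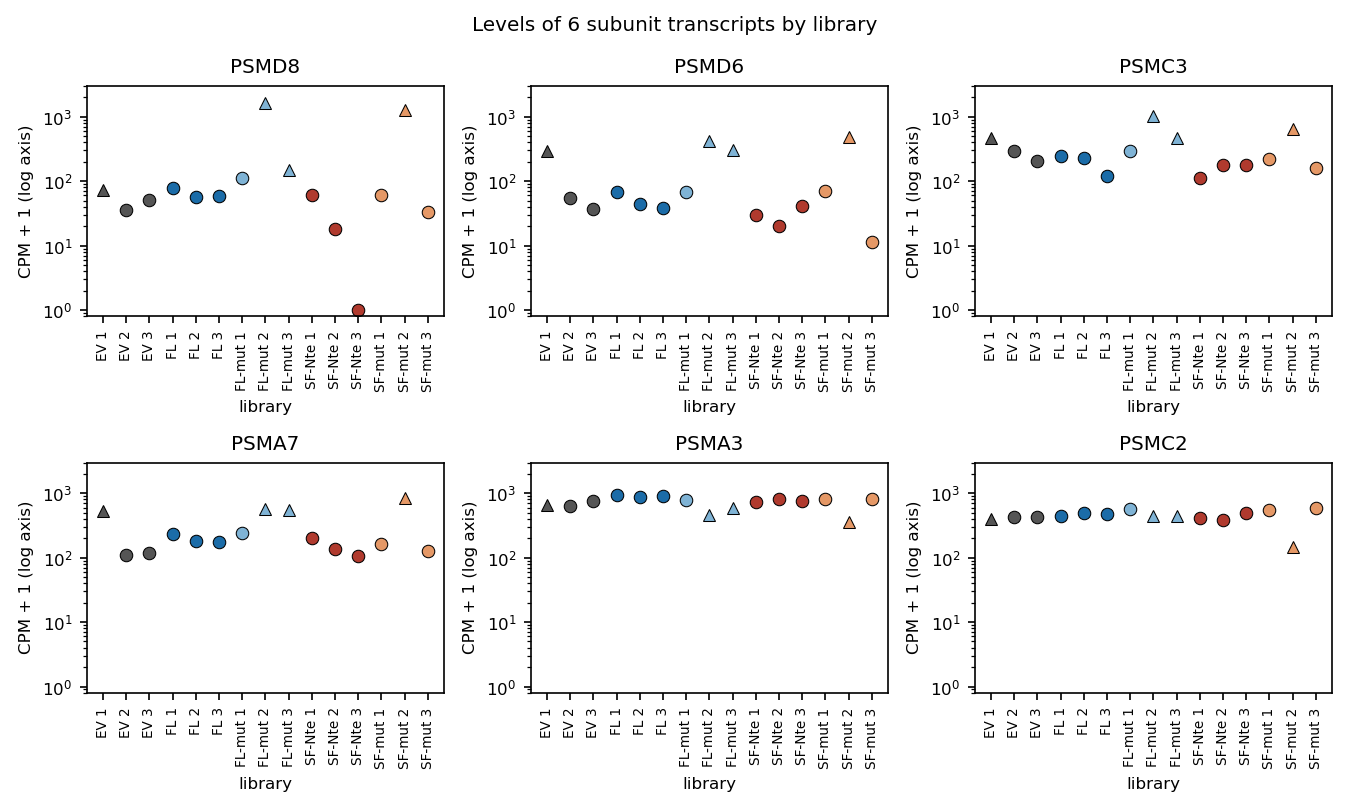
Levels of 6 subunit transcripts in each of the 15 libraries, as CPM + 1 on a log axis; triangles are the 4 GC-rich libraries and colours are groups. PSMD6, PSMC3 and PSMA7 are highest at the triangles, whereas PSMA3 and PSMC2 are lowest at SF-mut replicate 2. PSMD8 stands far above the rest only at FL-mut replicate 2 and SF-mut replicate 2.

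Among the ATPases, 4 of 6 were lowest in SF-mut replicate 2. PSMC2 was at 403, 425 and 423 CPM with EV, 436, 496 and 472 with FL and 571, 439 and 439 with FL-mut. It was at 412, 382 and 488 CPM with SF-Nte and 554, 145 and 591 with SF-mut. SF-mut replicate 2 was at 145 CPM while the other 14 libraries lay between 382 and 591 CPM. All FL and all FL-mut libraries were above all EV libraries, by 0.17 ± 0.36 and 0.21 ± 0.36 (log2, SE; edgeR adjusted p = 0.972 and 0.884).

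PSMC3 departed from this pattern of the ATPase ring. It was at 462, 295 and 202 CPM with EV, 243, 226 and 119 with FL and 288, 1041 and 463 with FL-mut. It was at 112, 177 and 179 CPM with SF-Nte and 222, 647 and 162 with SF-mut. All FL-mut libraries were above all FL libraries, the 4 GC-rich libraries were its highest, and SF-Nte was below EV in every library. FL-mut minus FL was 1.60 ± 0.54 (log2, SE; edgeR adjusted p = 0.32), with an unadjusted p under 0.05. Without the 4 GC-rich libraries it was 0.52 (edgeR adjusted p = 0.972), FL-mut then being 1 library, assumed to vary like the other groups. PSMC6 had means of 273 ± 52.1 CPM with EV, 281 ± 55.6 with FL, 214 ± 73.6 with FL-mut, 357 ± 24.7 with SF-Nte and 256 ± 97.4 with SF-mut (SD, n = 3).

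PSMD8, a subunit of the lid of the regulatory particle, stood far higher in 2 libraries than in the rest. It stood at 71.5, 34.2 and 50.7 CPM with EV, at 76.3, 56.0 and 57.1 with FL and at 110.1, 1606 and 147 with FL-mut. It stood at 59.7, 16.9 and 0 CPM with SF-Nte and at 60.5, 1261 and 32.8 with SF-mut. FL-mut replicate 2 and SF-mut replicate 2 were at 1606 and 1261 CPM, and none of the other 13 libraries exceeded 147 CPM. In SF-Nte replicate 3 no read was counted, which allows up to 7.47 CPM (3 counts, counting error only). All FL-mut libraries were above all EV libraries, while EV and SF-mut overlapped.

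On the log2 scale PSMD8 was 3.56 ± 1.28 above EV with FL-mut (edgeR adjusted p = 0.344) and 3.09 ± 1.26 above EV with SF-mut (adjusted p = 0.826). FL-mut minus FL was 3.29 ± 1.27 (adjusted p = 0.338), and SF-mut minus SF-Nte was 4.08 ± 1.37 (adjusted p = 0.574). Each of these 4 had an unadjusted p under 0.05. Without FL-mut replicate 2, FL-mut minus EV was 1.27 and FL-mut minus FL 1.02. Without SF-mut replicate 2, SF-mut minus EV was -0.17 and SF-mut minus SF-Nte 0.83. Without the 4 GC-rich libraries the 4 differences were 1.32, 0.12, 0.76 and 0.82, with FL-mut replicate 1 then alone in its group. FL minus EV was 0.27 ± 1.19 (95% interval -2.25 to 2.80).

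PSMD6, another lid subunit, was at 298, 53.2 and 35.6 CPM with EV, 67.3, 43.5 and 37.7 with FL and 67.7, 423 and 300.1 with FL-mut. It was at 28.9, 18.8 and 39.8 CPM with SF-Nte and 68.6, 478 and 10.3 with SF-mut. The 4 GC-rich libraries were between 298 and 478 CPM and the other 11 between 10.3 and 68.6 CPM, with no value in between. FL-mut minus FL was 2.40 ± 1.02 (log2, SE; edgeR adjusted p = 0.378) and SF-mut minus SF-Nte 2.65 ± 1.08 (adjusted p = 0.577), both with an unadjusted p under 0.05. Without the 4 libraries these were 0.41 and 0.46, with FL-mut replicate 1 then alone in its group. The transcript GC of PSMD6, 45.5%, was below the regulatory median of 48.8%, and the GC of its first 100 bases was 60.0%.

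PSMD7, the lid partner of the deubiquitinase, was the 1 member whose SF-mut libraries all lay above all SF-Nte libraries. Its values were 99.7, 207 and 61.5 CPM with SF-mut and 52.0, 47.0 and 59.8 with SF-Nte. With EV, FL and FL-mut they were 114, 91.1 and 42.7, then 65.2, 59.7 and 58.1, then 88.9, 152 and 112 CPM. SF-mut minus SF-Nte was 1.20 ± 0.46 (log2, SE; edgeR adjusted p = 0.574), and 0.59 without the GC-rich libraries. The share of all tested genes without overlap in this contrast was 12.4%.

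PSMD12, a lid subunit, was at 111, 52.5 and 32.9 CPM with EV, 65.2, 46.0 and 54.2 with FL and 109, 134 and 117 with FL-mut. It was at 21.2, 20.7 and 44.8 CPM with SF-Nte and 78.4, 61.6 and 20.5 with SF-mut. All FL-mut libraries were above all FL libraries by 1.12 ± 0.51 (log2, SE; edgeR adjusted p = 0.397). This difference was 0.94 without the GC-rich libraries, with FL-mut replicate 1 then alone in its group. SF-Nte minus EV was -1.20 ± 0.54 (adjusted p = 0.664), and -0.60 without them, where EV then has 2 libraries.

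The PSMD subunits that handle ubiquitin did not pass in any contrast. PSMD4, a ubiquitin receptor, had group means of 112 ± 36.0 CPM with EV, 94.6 ± 23.3 with FL, 125 ± 72.2 with FL-mut, 109 ± 32.7 with SF-Nte and 144 ± 121 with SF-mut (SD, n = 3). Its highest library was SF-mut replicate 2 at 284 CPM. PSMD14, the deubiquitinase that cuts chains off the substrate, had means of 195 ± 14.3, 203 ± 74.9, 149.5 ± 54.5, 232 ± 16.4 and 228 ± 73.7 CPM in the same order. Its SF-Nte libraries were all above its EV libraries, by 0.25 ± 0.35 (log2, SE; edgeR adjusted p = 0.928).

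The chaperone genes gave no common picture. PSMD10 was at 54.5, 56.1 and 65.9 CPM with EV, 88.1, 83.3 and 104 with FL and 102, 63.4 and 113 with FL-mut. It was at 100.2, 84.7 and 67.2 CPM with SF-Nte and 80.1, 49.3 and 137 with SF-mut. All FL and all SF-Nte libraries were above all EV libraries, while FL-mut and SF-mut each overlapped EV through replicate 2. FL minus EV was 0.64 ± 0.38 and SF-Nte minus EV 0.52 ± 0.39 (log2, SE; edgeR adjusted p = 0.79 and 0.834). The 2 mutants were of like size, with FL-mut minus EV at 0.66 ± 0.38 and SF-mut minus EV at 0.60 ± 0.39 (edgeR adjusted p = 0.566 and 0.958). PSMD9 had the 4 GC-rich libraries as its highest, between 171 and 225 CPM, against 16.4 to 97.0 CPM in the other 11. PSMD5 did not exceed 12.5 CPM in any library.

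**Figure D3:**
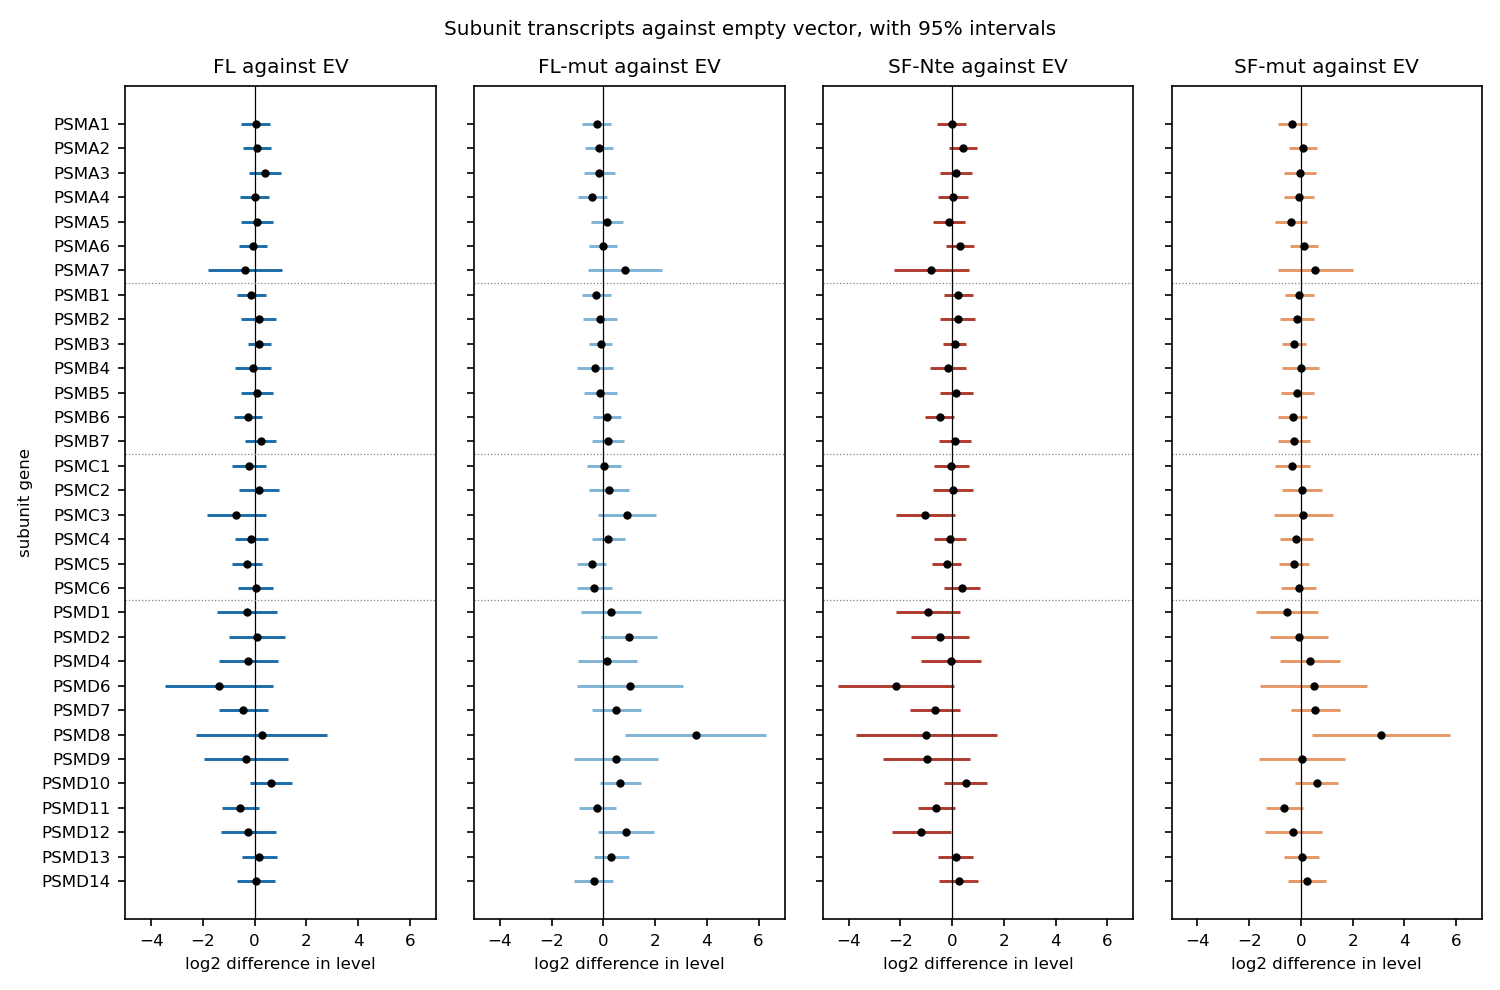
Log2 differences of the 32 tested members from EV for each ZBTB18 vector, with points for the fitted difference and bars for its 95% interval, not adjusted for the number of genes. The bars cross 0 except for PSMD8 with FL-mut and SF-mut and PSMD12 with SF-Nte.

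Contrasts were also read by whether the 3 libraries of a group all lay above or all below the 3 of the other. For FL against EV, 5 of 32 members did not overlap (15.6%, against 16.9% of all tested genes), all 5 higher with FL (8.75% of all genes) and 0 lower (8.17%): PSMA3, PSMB3, PSMB7, PSMC2 and PSMD10. For FL-mut against EV it was 4 (12.5%, against 17.4%) and for SF-Nte against EV 7 (21.9%, against 17.3%). For SF-mut against EV it was 0 (against 10.6%). For FL-mut against FL it was 9 (28.1%, against 18.4%), of which 7 were higher (8.97% of all genes) and 2 lower (9.44%). The 7 were PSMA7, PSMC3, PSMD1, PSMD6, PSMD7, PSMD8 and PSMD12, and the 2 were PSMA3 and PSMA4. For SF-mut against SF-Nte it was 1 (3.12%, against 12.4%), and for SF-Nte against FL 7 (21.9%, against 24.4%).

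Core and regulatory genes had median differences of opposite sign in 6 of the 7 contrasts, all but SF-Nte against FL. Without the 4 GC-rich libraries this held in 2 of the 7, SF-Nte against EV and SF-mut against SF-Nte. For FL-mut against FL the median log2 difference was -0.23 over the 14 core genes and 0.36 over the 18 tested regulatory genes, beside 0.02 over all tested genes. For SF-mut against SF-Nte these were -0.27, 0.23 and 0.05. For FL-mut against EV they were -0.13, 0.29 and 0.04, and for FL against EV 0.06, -0.23 and -0.01. For SF-Nte against EV they were 0.11, -0.35 and -0.13, so the all-gene median itself was below 0 there. In SF-mut against EV they were -0.10, 0.04 and -0.02, and in SF-Nte against FL -0.07, -0.13 and -0.15. The typical SE of 1 member's difference was about 0.28 for core and 0.41 for regulatory genes in FL against EV.

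The fit without the 4 GC-rich libraries was filtered and scaled anew. It kept 7788 genes instead of 6767, so its all-gene medians cover another gene set. In it the core, regulatory and all-gene medians were 0.09, 0.51 and -0.08 for FL-mut against FL. For FL-mut against EV they were 0.14, 0.36 and -0.03, so the core medians turned positive. The core median for SF-mut against EV turned positive too, with 0.11, 0.05 and -0.06, and the regulatory median for FL against EV turned positive, with 0.10, 0.04 and 0.04. The same 3 medians were 0.12, -0.15 and -0.09 for SF-Nte against EV, -0.10, 0.23 and 0.01 for SF-mut against SF-Nte, and -0.07, -0.12 and -0.18 for SF-Nte against FL. FL-mut replicate 1, the library left in its group, had the highest regulatory sum outside the GC-rich set (6299.7 CPM), with PSMC4 at 1382 and PSMD2 at 218 CPM, each the highest of the 15.

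The summed levels of the particles gave the same picture by library. Core genes summed to 10659, 9799 and 11175.5 CPM with EV, 11748, 9975 and 11310.2 with FL and 11670.3, 8203 and 9627 with FL-mut. They summed to 12352, 11786 and 11021.5 CPM with SF-Nte and 11309, 7456 and 11740.4 with SF-mut. FL-mut replicate 2 and SF-mut replicate 2 were lowest. Regulatory genes summed to 5648, 4882 and 4232 CPM with EV, 5259, 3824 and 4174 with FL, and 6299.7, 7013 and 4771 with FL-mut. They summed to 4648, 4253 and 4238 CPM with SF-Nte and 5244, 5733 and 4224 with SF-mut. All 34 members together made up 1.32% to 1.80% of the scaled counts of a library.

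The log2 ratio of core to regulatory sums was 1.11 ± 0.26 with EV, 1.33 ± 0.15 with FL and 1.42 ± 0.047 with SF-Nte, against 0.71 ± 0.42 with FL-mut and 0.99 ± 0.56 with SF-mut (SD, n = 3). It is a score over chosen members and has no test. FL-mut libraries lay between 0.23 and 1.01 and FL libraries between 1.16 and 1.44, so they did not overlap. The lowest ratios were 0.23 in FL-mut replicate 2 and 0.38 in SF-mut replicate 2, where PSMD8 alone added 1606 and 1261 CPM to the regulatory sum. Without PSMD8 these were 0.60 and 0.74, and the group values 0.86 ± 0.23 for FL-mut and 1.12 ± 0.37 for SF-mut. Without the 4 GC-rich libraries FL-mut minus FL was -0.44 and SF-mut minus SF-Nte -0.13, instead of -0.62 and -0.43. FL-mut replicate 1 was then alone in its group. SEM1, listed here with the partners of the particle, was outside the symbol rule and is not in the regulatory sum. Its means were 927 ± 247 CPM with EV, 1171 ± 145 with FL and 648 ± 130 with FL-mut (SD, n = 3). With SF-Nte and SF-mut they were 954 ± 121 and 736 ± 142 CPM. The ratio with SEM1 included was not computed.

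**Figure D4:**
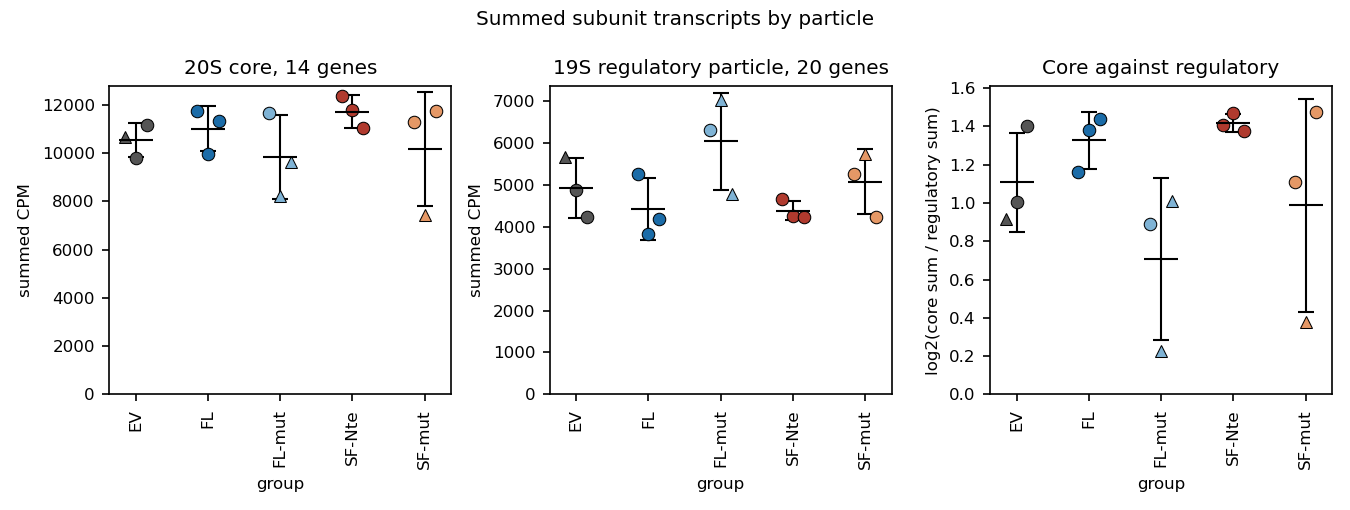
Summed CPM of the 14 core genes, summed CPM of the 20 regulatory genes, and the log2 ratio of these sums, by group. Points are libraries (triangles for the 4 GC-rich ones), the horizontal mark is the group mean and the bars its SD (n = 3); the lowest ratios, 0.23 and 0.38, are triangles of FL-mut and SF-mut.

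By library, the GC-rich samples parted the members. Of the 32, 6 had the 4 GC-rich libraries as their 4 highest: PSMA7, PSMB6, PSMC3, PSMD6, PSMD7 and PSMD9 (18.8%, against 4.2% of all tested genes). At the other end, 16 (50%, against 16.2%) had SF-mut replicate 2 as their lowest library, 10 of them core genes. SF-mut replicate 2 was also the shallowest library, with 315693 counts over 8177 genes with a count. The mean deviation of genes with the most GC-poor transcripts was -0.81 in it and between -0.28 and 0.37 in the other 14, and the part of depth and base composition in these counts was not tested. The median transcript GC of the 6 was 53.0% and that of the other 26 was 48.1%. For the first 100 bases of the transcript the medians were 64.0% and 56.3%. The ranges overlapped, since the other 26 spanned 37.9% to 57.2% for the whole transcript, and their first 100 bases reached 71.5%. These shares describe the libraries and have no test.

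Within SF-mut, replicate 2 was compared with the mean of replicates 1 and 3 on log2(CPM + 1). The difference was below 0 for 12 of 14 core genes, with a median of -0.87. For the 6 ATPases it was below 0 in 5, with a median of -0.90. For the 12 tested PSMD genes the median was 0.41, with 5 above 1, up to 4.79 for PSMD8. Within FL-mut, replicate 2 against replicate 1, the library that is not GC-rich, gave medians of -0.65 for the core, -0.71 for the ATPases and 0.14 for PSMD. Within EV, replicate 1 against the mean of replicates 2 and 3 gave 0.08, 0.05 and 0.74, so the PSMD genes were above the core in all 3 groups that hold such a library. These deviations were taken for members only, so the counts and medians have no value over all tested genes beside them.

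**Figure D5:**
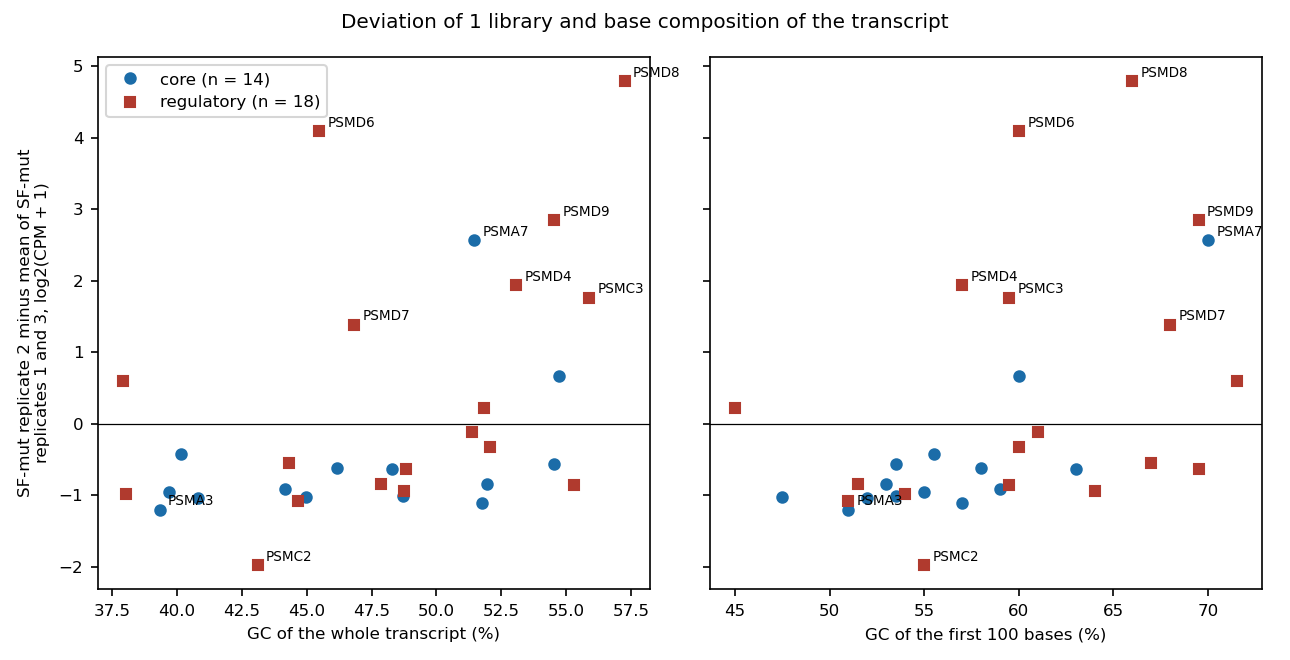
Deviation of each of the 32 tested members in SF-mut replicate 2 from the mean of SF-mut replicates 1 and 3, on log2(CPM + 1), against the GC of the whole transcript (left) and of its first 100 bases (right). Blue circles are core and red squares regulatory genes; most lie below 0, and PSMD8 is highest at 4.79.

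Other genes of the pathway were taken as lists. None of the 3 immunoproteasome genes, 5 activators and inhibitors, 6 assembly chaperones, 3 tested regulators of subunit genes or 8 tested ubiquitin and delivery genes passed in the test over 5 groups or in any contrast. PSMB8, the inducible counterpart of PSMB5, was at 189, 398 and 288 CPM with EV, 191, 231 and 244 with FL and 158, 314 and 239 with FL-mut. It was at 566, 454 and 418 CPM with SF-Nte and 243, 462 and 308 with SF-mut, so all SF-Nte libraries were above all EV libraries. PSMB9 did not exceed 66.4 CPM and PSMB10 did not exceed 117 CPM. PSME1, a subunit of the activator that can replace the regulatory particle, had means of 547 ± 121 CPM with EV, 354 ± 13.2 with FL, 382 ± 96.4 with FL-mut, 729.8 ± 189.8 with SF-Nte and 657 ± 169 with SF-mut. Its edgeR adjusted p over the 5 groups was 0.145. The genes of lowest p over the 5 groups were PAAF1 among the chaperones (edgeR adjusted p = 0.370) and NGLY1 among the regulators (0.698).

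USP14 was the 1 gene of the lists that passed. It encodes a deubiquitinase that docks on the regulatory particle and trims ubiquitin chains. Its levels were 21.5, 25.5 and 19.6 CPM with EV, 183, 34.8 and 22.3 with FL and 23.2, 19.2 and 13.3 with FL-mut. They were 5.78, 3.76 and 0 CPM with SF-Nte, that is 3, 2 and 0 counts, and 24.5, 9.25 and 24.6 with SF-mut. Every SF-Nte library was below every other library, although SF-mut replicate 2 also had 3 counts. FL replicate 1 stood far above FL replicates 2 and 3. SF-Nte minus FL was -4.53 ± 0.91 (log2, SE; edgeR adjusted p = 0.0239), 1 of 7 tested partners of the particle. The value depends on the prior count, since SF-Nte replicate 3 had no read. It did not pass when FL replicate 1 was left out (-3.02, edgeR adjusted p = 0.0976), nor when SF-Nte replicate 1, 2 or 3 was left out (0.0934, 0.108 and 0.0933), nor in a fit of the FL and SF-Nte libraries alone (0.0508).

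The genes whose profile over the 15 libraries was most like the mean standardised member profile were PSMC1P1 (Pearson's r = 0.94), NOP58 (0.91), KIF20B (0.87), TIMM17A (0.86) and CCT8 (0.86). The values describe 15 libraries that share depth and base composition with the members, and PSMC1P1 is a copy of PSMC1 that can take its reads.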

How the data were processed

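Whole-number counts per gene symbol were deposited by the authors as 1 table of 15 columns, raw and not normalized. The submitters' processing notes name GRCh38; neither an aligner, a counter nor a strand setting is given in the sources used here. Columns and groups follow the sample titles. Nanopore cDNA was amplified by PCR and carries no molecular identifiers, so base composition and length can alter a gene's share, and counting floors cover counting error only. The total count per library, 315693 to 1930245, limits the precision of low members.

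Counts were scaled by TMM and filtered (filterByExpr, minimum count 10, minimum total 15). They were tested with edgeR 4.0.16 (quasi-likelihood, robust, 1 coefficient per group, 10 residual degrees of freedom, R 4.3.3). P-values were adjusted by Benjamini-Hochberg over all 6767 tested genes. An SE is the difference divided by the square root of the test's F. DESeq2 1.42.0 was an alternative, beside other scaling, no filter, a replicate block, length and GC offsets, a fit of 2 groups and leaving out libraries. The procedure was run on simulated counts for FL against EV only. The simulation held no GC-rich libraries, so it does not bear on differences that rest on them. Transcript length and GC are medians over GENCODE 29 protein-coding transcripts, matched for 97.2% of symbols. Replicates of a group differed beyond sampling noise (chi-square per gene 4.23 to 38.0). The members and lists were chosen with earlier results of these data known. Genes were named by lowest p in each class, by role and, as with PSMD6, PSMD7, PSMD9, PSMD10, PSMA3 and PSMC2, after their values were seen.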

Additional observations from a re-analysis of the deposited data

How the results depend on the processing

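With no filter on low counts, edgeR called 4 members over the 5 groups (5.73% of all genes), 1 in FL-mut against EV (1.18%), 1 in SF-Nte against EV (0.655%), 1 in SF-mut against EV (0.438%), 3 in FL-mut against FL (1.88%) and 2 in SF-mut against SF-Nte (1.04%), instead of 0 each; the cause was not tested. Leaving out each library in turn gave 0 to 1 members over the 5 groups, the 1 being PSMD8 without SF-mut replicate 2, and 0 in each contrast. Over the same settings PSMD8 in SF-mut against EV ran from -0.17 (without SF-mut replicate 2) to 3.50. The core to regulatory log2 ratio, with members weighted equally on the log scale, was 0.53 for SF-Nte against EV and 0.33 for SF-Nte against FL, instead of 0.31 and 0.09. The other scaling, DESeq2, the length and GC correction and the 2-group fits called 0 members. The fit with a replicate block called 0 members in all 8 tests. Apart from DESeq2 and the fit without the filter, these counts have no share of all tested genes beside them. In the main fit that share was at most 1.12% in any of the 8 tests. A count of 0 members lies near it and is not read as a trait of the members. Same-number libraries of EV and FL had correlated deviations of 0.27, 0.095 and 0.27 over 6767 genes, not all above 0.1, so the numbers were not taken to pair them. The limit that marks GC-rich libraries was first 0.5, which left out FL-mut replicate 3, and was then set to 0.3, both after the data were seen. Low depth leaves PSMD3 and PSMD5 untested and a floor of 1.5 to 9.25 CPM for 3 counts.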
